A study of Mus musculus with 3 samples.

Results

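The cholesterol and fatty acid synthesis genes examined here are 32 of the 16621 genes listed in at least 1 of 3 RNA-seq libraries of mouse tail tendon derived stem cells. The members were chosen by name as enzymes and regulators of lipid synthesis, and each was matched by its Entrez gene ID. They comprise 24 sterol genes and 8 fatty acid genes, which were kept apart. The sterol genes are 8 from acetyl-CoA and mevalonate to squalene, 10 from squalene to cholesterol, and 6 of sterol sensing and transfer. All 32 were listed in every library and passed the filter on low counts.

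The cells are progenitors isolated from tail tendon of 10-week-old C57BL/6 mice, expanded in low-glucose medium with fetal bovine serum and harvested at confluence at passage 4, with no treatment. There was 1 wild-type library (WT), and 2 libraries came from mice carrying the CFTRΔF508 mutation (DF508 replicates 1 and 2). CFTR is an anion channel, and ΔF508 is the most common mutation of cystic fibrosis. The labels give neither separate animals nor separate cultures for the DF508 libraries, so a p-value here reflects the spread of these particular samples, which could be technical. WT is a lone library, and the fit gives it the spread seen within the DF508 pair.

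Cells build cholesterol from acetyl-CoA through mevalonate, farnesyl diphosphate and squalene, and build fatty acids from acetyl-CoA through malonyl-CoA. Transcription of both routes is driven by the sterol regulatory element binding proteins (SREBPs), which stay in the endoplasmic reticulum while sterol is plentiful and travel to the nucleus when it runs low. A culture fed with serum can also take up cholesterol from lipoproteins, which is known to hold the synthesis genes down.

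Depth was alike, with total estimated counts of 5298326 in WT, 5241826 in DF508 replicate 1 and 5246886 in replicate 2. All 12 tendon markers were listed in every library, with a summed level of 46957 to 48963 CPM (CPM is the count scaled to the library total after TMM normalization). Of these 12, the matrix proteoglycan decorin, Dcn, rose from 741 CPM to 1023 and 1099 CPM (edgeR's quasi-likelihood test, adjusted p = 0.0417). Of all genes tested, 0.489% were called higher. At an unadjusted p under 0.05, 4 of the tendon markers were higher and 3 lower. By that rule 5.86% of all genes tested were higher and 6.08% lower. The adipocyte markers Adipoq, Lep, Plin1, Cidec and Retn, the endothelial markers Pecam1, Cdh5, Tie1, Emcn and Cldn5 and the epithelial markers Cdh1, Krt5, Krt14, Krt18, Krt1 and Cldn4 were at 0 in every library. Over their whole lists, the 15 adipocyte markers summed to 255 CPM in WT and 220 and 298 CPM in DF508. The 10 endothelial markers summed to 108 CPM in WT and 105 and 90.0 CPM in DF508, and the 10 epithelial markers to 8.10, 10.0 and 10.2 CPM in the same order. All 15 myeloid markers were listed in every library, with a summed level of 105 CPM in WT, 160 CPM in DF508 replicate 1 and 743 CPM in replicate 2. In bulk RNA, fewer cells of a type and less RNA per cell cannot be told apart.

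None of the 24 sterol genes and none of the 8 fatty acid genes passed the threshold in DF508 against WT (edgeR's quasi-likelihood test with Benjamini-Hochberg adjustment, threshold 0.05). Of all 12888 genes tested, 0.489% were called higher and 0.9% lower in DF508. The adjusted p of the members ran from 0.0938, in Fads2, to 0.996, in Hsd17b7. Fitted log2 fold changes of DF508 over WT lay between -0.44 and 0.49. The median size was 0.1 over the 32 members and 0.18 over all genes tested. Over tested genes with a mean of at least 50 counts, which 30 members reached, it was 0.15. At an unadjusted p under 0.05 there were 2 members higher and 6 lower, and of all genes tested 5.86% were higher and 6.08% lower by this rule. DESeq2's Wald test called none of the 31 members to which it gave an adjusted p (Tm7sf2 had none), and 0.661% of all such genes. The 8 with a low unadjusted p were the squalene cyclase Lss, the sterol sensing genes Insig1, Insig2 and Srebf1, and the fatty acid genes Scd1, Fads1, Fads2 and Elovl6. The 95% interval of the fitted difference lay within a fold of 1.5 either way for 17 of 24 sterol and 6 of 8 fatty acid genes. It lay within a fold of 2 for 23 and 8 of them, Tm7sf2 being the exception. The test has 1 residual degree of freedom, so these intervals depend on the spread shared across genes.

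**Figure D1:**
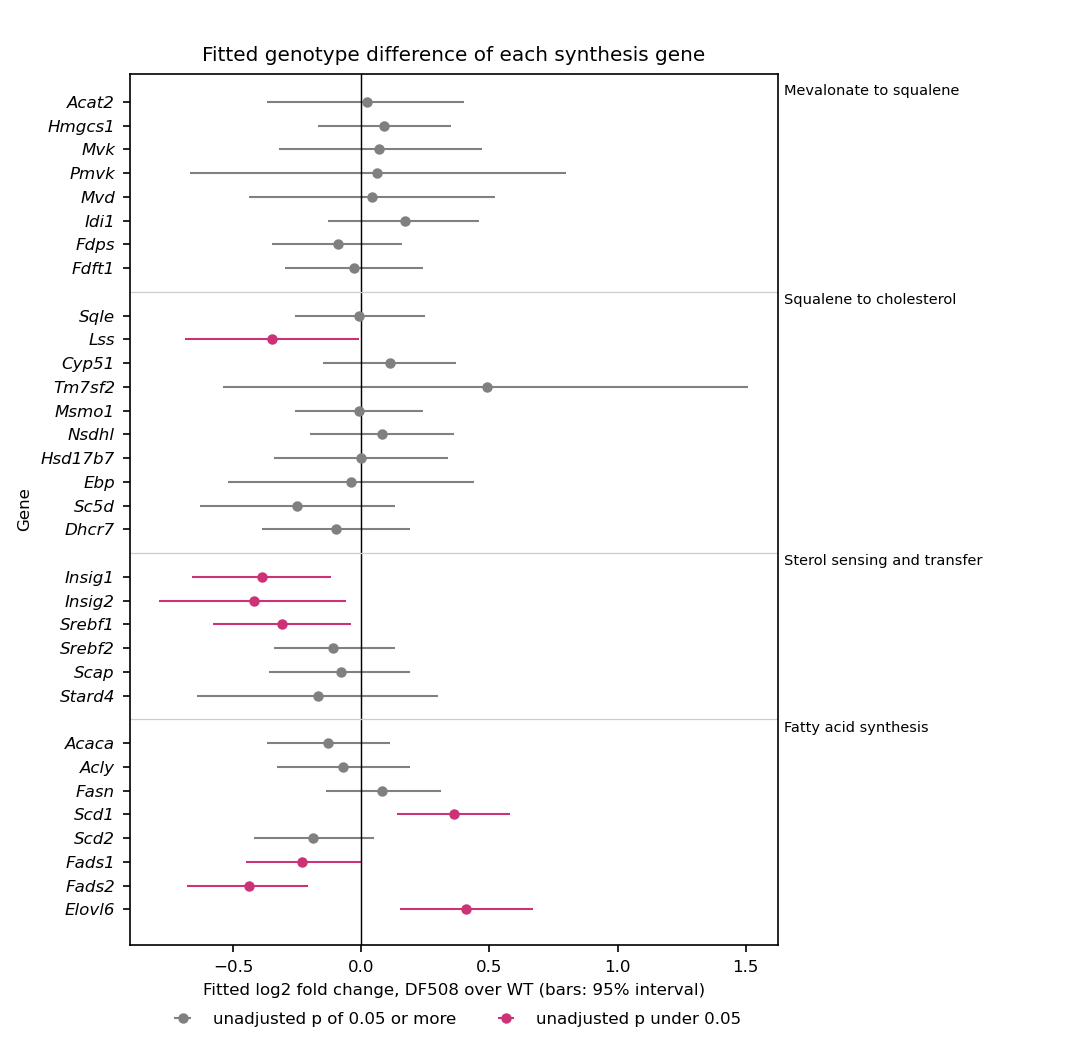
Fitted log2 fold change of DF508 over WT (horizontal axis) for each of the 32 genes (vertical axis), with its 95% interval, for 1 WT and 2 DF508 libraries. The points lie between -0.44 and 0.49, and none of the 32 genes passed the adjusted threshold; the 8 genes in colour had an unadjusted p under 0.05.

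Proximal promoters were searched for the letters of motifs known for regulators of these routes. RefSeq windows (build GRCm38.p6) were matched by gene ID for 25 of the 32 members, 20 sterol and 5 fatty acid genes. Fads1, Fdft1, Fdps, Scd1, Scd2, Sqle and Stard4 had no window and were not searched. The 250 bases before each start were searched on both strands for an SREBP element (TCACNCCAC), the NF-Y box (CCAAT), an E-box (CACGTG) and the Sp1 box (GGGCGG). The SREBP element was found in 1 member, Hmgcs1, and in 1.05% of the 32851 windows of all genes. Only this pattern was searched, so an element with other letters or farther from the start would be missed. The NF-Y box was found in 19 members, 18 of them sterol genes, and in 33.8% of all windows. An E-box was found in 5 members and in 6.02% of all windows, and the Sp1 box in 21 members and in 32.7% of all windows. Members with several starts had several windows, 33 in all, of which 3.03% held the SREBP element, 60.6% the NF-Y box, 15.2% the E-box and 72.7% the Sp1 box. A match is a description of letters and not of binding. Shown 5′ to 3′ are the windows of Hmgcs1, the member with the SREBP element, of Insig1 and Lss, the sterol regulator and the sterol enzyme with the lowest p, and of Fads2, the member with the lowest p of all; capitals mark the matches, none of which overlap.
Hmgcs1: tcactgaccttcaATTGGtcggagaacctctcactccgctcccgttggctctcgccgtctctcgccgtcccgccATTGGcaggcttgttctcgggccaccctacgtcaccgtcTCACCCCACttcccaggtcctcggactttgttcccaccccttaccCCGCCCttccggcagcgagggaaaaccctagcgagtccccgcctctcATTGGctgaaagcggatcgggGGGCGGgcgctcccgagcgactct
Insig1: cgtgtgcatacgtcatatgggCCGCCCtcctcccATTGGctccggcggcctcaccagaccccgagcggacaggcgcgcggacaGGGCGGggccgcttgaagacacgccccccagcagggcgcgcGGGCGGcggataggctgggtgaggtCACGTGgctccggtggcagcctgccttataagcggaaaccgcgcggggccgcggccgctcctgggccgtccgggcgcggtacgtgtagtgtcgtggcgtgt
Lss: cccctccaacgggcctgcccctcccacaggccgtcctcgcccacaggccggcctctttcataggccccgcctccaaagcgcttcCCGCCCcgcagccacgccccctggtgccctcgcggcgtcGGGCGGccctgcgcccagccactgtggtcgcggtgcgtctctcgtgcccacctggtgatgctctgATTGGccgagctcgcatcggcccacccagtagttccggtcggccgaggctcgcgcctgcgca
Fads2: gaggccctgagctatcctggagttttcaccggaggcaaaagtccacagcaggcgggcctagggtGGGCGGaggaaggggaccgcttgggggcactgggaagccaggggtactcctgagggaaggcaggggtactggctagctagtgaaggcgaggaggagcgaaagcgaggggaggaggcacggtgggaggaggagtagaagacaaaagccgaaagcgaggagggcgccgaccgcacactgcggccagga
The Hmgcs1 window is chr13:119690101-119690350 on the plus strand, with its SREBP element starting 137 bases before the start and NF-Y boxes at 237, 176 and 45 bases. The Insig1 window, chr5:28071162-28071411 on the plus strand, holds 1 E-box, 1 NF-Y box and 3 Sp1 boxes. The Lss window, chr10:76531355-76531604 on the plus strand, holds 1 NF-Y box and 2 Sp1 boxes. The Fads2 window, chr19:10101504-10101753 on the minus strand, holds 1 Sp1 box and none of the other 3 motifs.

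By level per length, the fatty acid desaturases stood highest and the late sterol reductase Tm7sf2 lowest. Over the 3 libraries, mean FPKM (as deposited, scaled to the length of the gene and to the library) was 109 for Scd2, 103 for Fads1, 97.8 for Fads2 and 83.5 for Scd1. The ranges of Scd2, 99.25 to 116.22 FPKM, and of Fads1, 96.56 to 111.70 FPKM, overlapped. Within each library Scd2 stood above Fads1, in WT at 116.22 against 111.70 FPKM. In DF508 replicate 1 the values were 111.6 against 100.51 FPKM, and in replicate 2 they were 99.25 against 96.56 FPKM. The place of Fads2 among the 4 desaturases differed between libraries. In WT, Fads2 at 116.63 FPKM stood level with Scd2. In both DF508 libraries Scd1 stood above Fads2, at 92.42 against 89.93 FPKM and 89.37 against 86.88 FPKM. Among sterol genes the farnesyl diphosphate synthase Fdps was highest at 65.2 FPKM, ahead of the methylsterol oxidase Msmo1 at 44.4 FPKM. Pmvk at 7.76 FPKM, the carrier Stard4 at 6.44 FPKM and Tm7sf2 at 3.64 FPKM were the lowest. Summed over each arm, the sterol genes reached 540.8, 536.2 and 528.8 FPKM, and the fatty acid genes 508.8, 497.4 and 468.8 FPKM, in WT and DF508 replicates 1 and 2. The summed level of DF508 over WT was 0.951 ± 0.0167 for sterol and 0.968 ± 0.0424 for fatty acid genes in CPM (SD, n = 2). The sterol ratio was 0.985 in FPKM, so its small deficit depended on the scale.

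**Figure D2:**
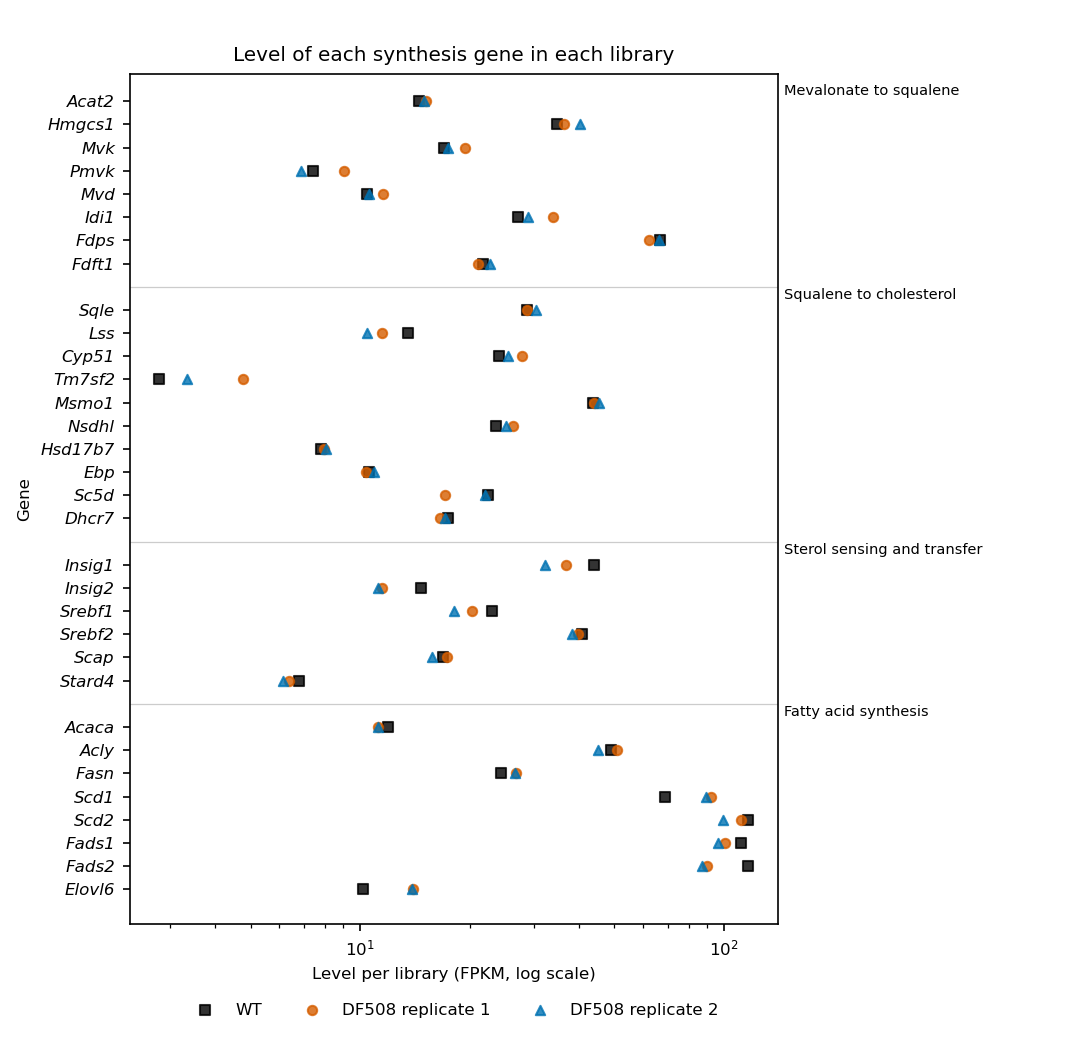
Level of each of the 32 genes in each library (horizontal axis, FPKM on a log scale), by role, with 1 WT and 2 DF508 libraries as separate points. Scd2, Fads1 and Fads2 have mean levels of 109, 103 and 97.8 FPKM, and Tm7sf2 has 3.64 FPKM.

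The steps from acetyl-CoA to squalene showed no difference between the genotypes beyond their error. In this class of 8 the fitted log2 fold changes ran from -0.09 to 0.17 with a median of 0.05, and the lowest adjusted p was 0.681. WT lay above both DF508 libraries in 1 gene, below both in 3 and between them in 4, and of all genes tested 36.2% had WT above both and 36.3% below both. The distance of WT from the nearer DF508 library exceeded the distance between the DF508 libraries (log2 of CPM plus 0.5) in 0 of the 8, and in 40.7% of all genes tested. With library totals it did so in 1 of the 8, and in 5322 of the 12888 genes tested. Scaled to library totals, WT lay below both in 10 of the 24 sterol genes in place of 6 by CPM, and in 43.5% of all genes tested. Triplets below are in the order WT, DF508 replicate 1, DF508 replicate 2.

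Acat2, the cytosolic thiolase that joins a pair of acetyl-CoA units, had 159, 165 and 163 counts, or 30.7, 31.2 and 30.8 CPM. Hmgcs1, which adds a further acetyl-CoA to make HMG-CoA and holds the SREBP element printed above, had 608, 628 and 695 counts, or 117, 119 and 131 CPM. Its fitted log2 fold change was 0.09 ± 0.11 (SE, adjusted p = 0.823), and DF508 replicate 2 alone was the high library. Mvk, the mevalonate kinase, had 153, 173 and 156 counts. Pmvk, which adds the next phosphate, had 46, 56 and 42 counts. By CPM, WT lay between the DF508 libraries for both kinases, for Mvk at 29.5 CPM against 29.4 CPM in replicate 2. Scaled to library totals, Mvk had WT below both. Pmvk differed more between the DF508 libraries (log2 ratio of replicate 2 to 1 of -0.42) than either library did from WT. Mvd, the decarboxylase that yields the isoprene unit, had 97, 106 and 98 counts. Idi1, the isomerase of that unit, had 415, 512 and 439 counts, or 80.1, 96.9 and 82.8 CPM, and its excess rested on replicate 1. Idi1 had the largest fitted change of the class, 0.17 ± 0.13 (SE, adjusted p = 0.681). Fdps, which makes the farnesyl diphosphate that also feeds protein prenylation, had 442, 410 and 437 counts. Fdft1, the squalene synthase that commits farnesyl units to sterol, had 332, 320 and 345 counts, with WT between the DF508 libraries. Acat2 and Idi1 share reads with another gene or copy and are uncertain.

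From squalene to cholesterol, 9 of 10 genes had an unadjusted p above 0.05 and Lss was the exception. The median fitted log2 fold change was -0.01, with a range of -0.35 to 0.49, and the lowest adjusted p was 0.4. By CPM, WT lay above both DF508 libraries in 4 genes, below both in 3 and between them in 3. Of all genes tested, 36.2% had WT above both and 36.3% below both. Sqle, the squalene epoxidase and a rate-limiting oxygenase of the route, had 420, 414 and 440 counts, or 81.0, 78.4 and 83.0 CPM, with WT inside the DF508 range. Its fitted log2 fold change was -0.01 ± 0.11 (SE), with a 95% interval of -0.26 to 0.25.

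Lss, the cyclase that folds the epoxide into lanosterol, had 230, 193 and 175 counts, or 44.4, 36.5 and 33.0 CPM. Both DF508 libraries lay below the lone WT library, as in 36.2% of all genes tested. The fitted difference was 1.28-fold lower (log2 -0.35 ± 0.15 SE, 95% interval -0.69 to -0.01, unadjusted p = 0.0446, adjusted p = 0.4), so Lss did not pass the threshold. Scaled to library total, the log2 ratio to WT was -0.24 in replicate 1 and -0.38 in replicate 2, with exact 95% counting intervals of -0.52 to 0.04 and -0.67 to -0.09.

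The other steps past lanosterol had unadjusted p-values above 0.05, including those whose WT level lay outside the DF508 pair. Cyp51, the lanosterol demethylase, had 558, 641 and 587 counts, and its fitted log2 fold change was 0.11 ± 0.11 (SE, adjusted p = 0.781). Msmo1, which oxidises the methyl groups, had 420, 418 and 433 counts, and its partner Nsdhl, the sterol dehydrogenase that removes them, had 277, 305 and 292 counts. Hsd17b7, the ketoreductase of the same complex, had 190, 192 and 195 counts, or 36.7, 36.4 and 36.8 CPM. By CPM, WT was between the DF508 libraries for Msmo1 and Hsd17b7 and below both for Nsdhl. Scaled to library totals, WT was below both for Msmo1, Hsd17b7 and Nsdhl.

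Ebp, the sterol isomerase, had 98, 95 and 100 counts, and Dhcr7, the reductase that finishes cholesterol, had 263, 247 and 255 counts. Sc5d, the sterol desaturase, had 268, 201 and 260 counts, or 51.7, 38.1 and 49.1 CPM. Only DF508 replicate 1 was low for Sc5d, and replicate 2 lay beside WT (log2 ratio of replicate 2 to 1 of 0.37). Tm7sf2, a sterol reductase also found in the nuclear envelope, had 22, 37 and 26 counts, the fewest of all members. Its fitted log2 fold change was 0.49 ± 0.45 (SE, 95% interval -0.54 to 1.51, adjusted p = 0.748), or 0.21 without DF508 replicate 1, and a difference of this size was not detectable at that depth. Cyp51, Hsd17b7 and Sc5d share reads and are uncertain.

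The sterol sensing and transfer genes had slightly lower CPM in both DF508 libraries than in WT, Scap not so when scaled to library totals, and none passed the threshold. WT lay above both DF508 libraries in 6 of 6 by CPM, and in 36.2% of all genes tested. Scaled to library totals it did so in 5 of 6, Scap then lying between, and in 29.6% of all genes tested. The fitted log2 fold changes ran from -0.42 to -0.08 with a median of -0.24, and the median over all genes tested was 0.01. By library, DF508 replicate 1 had a median of -0.18 and replicate 2 of -0.3. WT stood farther from the pair than the pair was wide in 5 of 6 by CPM, and in 40.7% of all genes tested. Scaled to library totals it did so in 4 of 6, and in 5322 of the 12888 genes tested. The summed level was 545.2, 485.8 and 448.7 CPM, whereas the 18 sterol enzymes summed to 964.3, 968 and 969.5 CPM.

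Insig1 encodes the endoplasmic reticulum anchor that retains the SREBP complex, and it is itself a target of SREBP. It had 621, 516 and 452 counts, or 120, 97.7 and 85.3 CPM. Both DF508 libraries were lower than the lone WT library, replicate 2 more so, and WT lay above both in 36.2% of all genes tested. The fitted difference was 1.31-fold lower (log2 -0.39 ± 0.12 SE, 95% interval -0.66 to -0.12, unadjusted p = 0.01, adjusted p = 0.209). Against WT the log2 ratio was -0.25 in replicate 1 and -0.44 in replicate 2, with exact counting intervals of -0.42 to -0.08 and -0.62 to -0.27 that exclude 0 for these libraries.

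Insig2, the second anchor, had 196, 150 and 148 counts, or 37.8, 28.4 and 27.9 CPM. Its DF508 libraries lay close together and both lay below WT, 1.34-fold by the fit (log2 -0.42 ± 0.16 SE, unadjusted p = 0.0288, adjusted p = 0.33). Srebf1, the SREBP gene most tied to fatty acid synthesis, had 529, 461 and 411 counts, or 102, 87.3 and 77.6 CPM. Again both DF508 libraries were lower, 1.24-fold by the fit (log2 -0.31 ± 0.12 SE, unadjusted p = 0.0282, adjusted p = 0.328). Srebf2, the SREBP gene most tied to cholesterol synthesis, had 994, 957 and 925 counts, or 192, 181 and 175 CPM. Its fitted log2 fold change was -0.11 ± 0.10 (SE, 95% interval -0.34 to 0.13, adjusted p = 0.754).

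Scap, the escort that carries SREBPs out of the endoplasmic reticulum, had 378, 382 and 346 counts, or 72.9, 72.3 and 65.3 CPM, and replicate 1 was level with WT. Stard4, a soluble carrier that moves sterol between membranes, had 108, 100 and 96 counts, or 20.8, 18.9 and 18.1 CPM. Neither differed beyond its error, with fitted log2 fold changes of -0.08 ± 0.12 and -0.17 ± 0.21 (SE; adjusted p = 0.852 and 0.821). The estimated counts of these 6 genes were whole within 0.005 in every library, so none was marked as sharing reads.

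**Figure D3:**
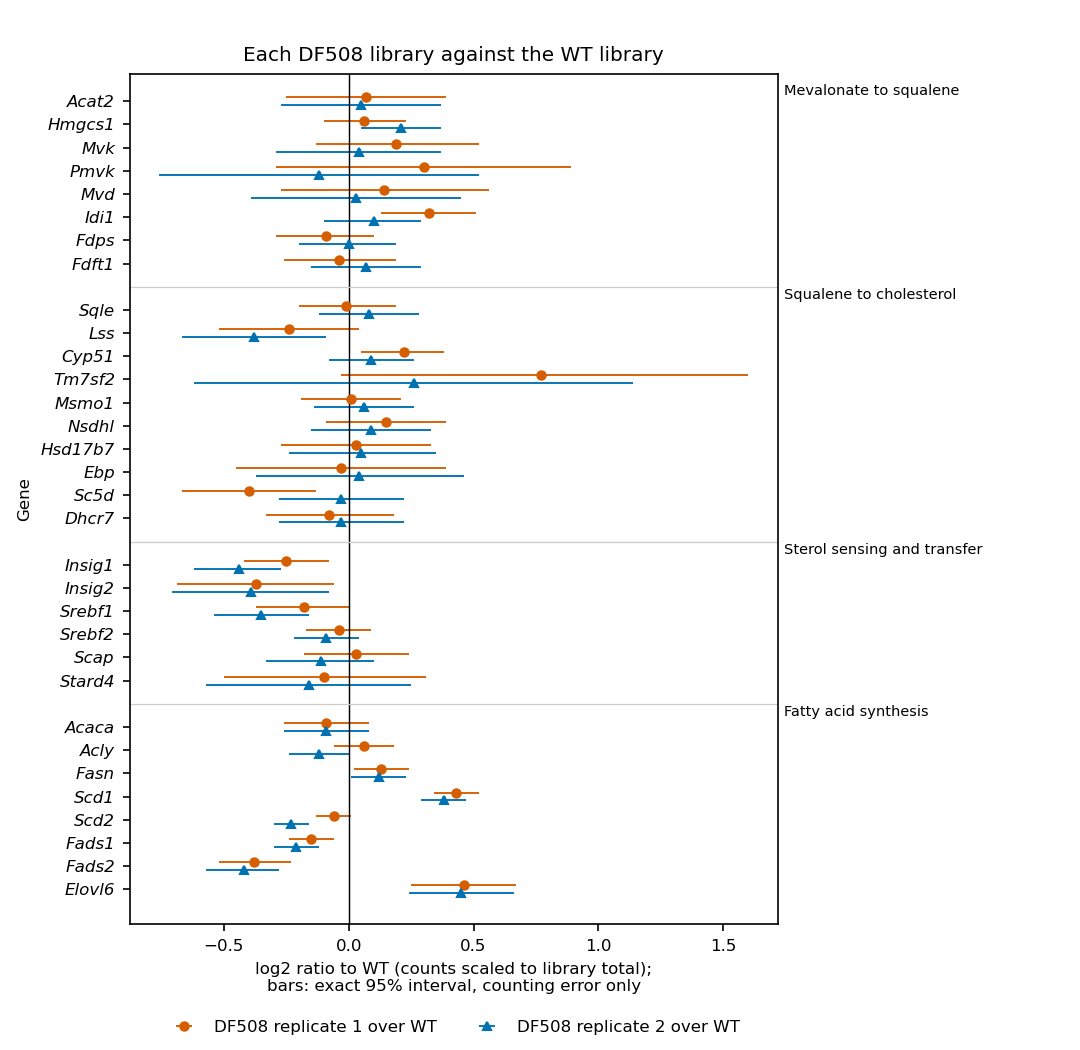
Log2 ratio of each DF508 library to the WT library (horizontal axis, counts scaled to library total) for each of the 32 genes, with exact 95% intervals that cover counting error only. Insig1 lies at -0.25 and -0.44 and Fads2 at -0.38 and -0.42, while Scd1 lies at 0.43 and 0.38 and Elovl6 at 0.46 and 0.45.

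Among the fatty acid genes, Scd1 and Elovl6 had higher levels and Fads1, Fads2 and Scd2 lower levels in both DF508 libraries than in WT, none past the adjusted threshold. WT lay above both DF508 libraries in 4 of 8, below both in 3 and between them in 1. Of all genes tested, 36.2% had WT above both and 36.3% below both. WT stood farther from the pair than the pair was wide in 6 of 8, and in 40.7% of all genes tested. At an unadjusted p under 0.05 there were 2 higher and 2 lower, and of all genes tested 5.86% were higher and 6.08% lower. The DF508 libraries were close to each other in these genes. The median size of the log2 ratio of replicate 2 to 1 was 0.05, against 0.12 over tested genes with a mean of at least 50 counts. The fatty acid genes had 324 to 3384 counts, and no set matched to them in counts was compared.

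The enzymes that make palmitate had the smallest fitted differences of the fatty acid genes. Acly, which splits citrate to supply cytosolic acetyl-CoA for both routes, had 1152, 1187 and 1051 counts, or 222, 225 and 198 CPM, with WT between the DF508 libraries. Acaca, the carboxylase that makes malonyl-CoA, had 578, 537 and 538 counts, or 112, 102 and 102 CPM. Fasn, the multi-enzyme synthase that builds palmitate, had 1301, 1412 and 1402 counts, or 251, 267 and 265 CPM. Their fitted log2 fold changes were -0.07 ± 0.11, -0.13 ± 0.11 and 0.08 ± 0.10 (SE; adjusted p = 0.873, 0.689 and 0.819).

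Elovl6, which lengthens palmitate to stearate, had 324, 440 and 438 counts, or 62.5, 83.3 and 82.7 CPM. The DF508 libraries lay close together and both were above WT. By the fit the level was 1.33-fold higher (log2 0.41 ± 0.11 SE, 95% interval 0.15 to 0.67, unadjusted p = 0.00604, adjusted p = 0.168). Scd1, a stearoyl-CoA desaturase that makes monounsaturated fatty acids from the products of Fasn and Elovl6, had 1776, 2362 and 2287 counts, or 343, 447 and 432 CPM. Both DF508 libraries were again above WT, 1.28-fold by the fit (log2 0.36 ± 0.10 SE, 95% interval 0.14 to 0.58, unadjusted p = 0.00562, adjusted p = 0.163). Its close relative Scd2, the more abundant desaturase here, had 3384, 3214 and 2862 counts, or 653, 609 and 540 CPM. Scd2 was lower in both DF508 libraries, with a fitted log2 fold change of -0.19 ± 0.10 (SE, 95% interval -0.42 to 0.05, adjusted p = 0.545).

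The paired desaturases thus had opposite signs. Of the reads given to Scd1 and Scd2 together, Scd1 held 34.4% in WT (exact 95% interval 33.1% to 35.7%), 42.4% in DF508 replicate 1 (41.1% to 43.7%) and 44.4% in replicate 2 (43.1% to 45.8%). The DF508 intervals overlap each other and lie above that of WT; they cover counting error only and compare 3 libraries, not genotypes. Scd1, Scd2, Fads2 and Elovl6 share reads with another gene or copy, so their estimates are uncertain, and the division of reads between Scd1 and Scd2 is uncertain with them.

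Fads2, the desaturase that opens the route from essential to long polyunsaturated fatty acids, had 923, 704 and 681 counts, or 178, 133 and 129 CPM. It was lower in both DF508 libraries, 1.36-fold by the fit, the strongest case among the 32 (log2 -0.44 ± 0.10 SE, 95% interval -0.68 to -0.21, unadjusted p = 0.00212, adjusted p = 0.0938). With edgeR's likelihood ratio test, which called 3.13% of all genes, Fads2 passed (adjusted p = 0.0223), and over all settings its adjusted p ran from 0.0223 to 1. Fads1, which acts later in the same route and lies near Fads2 on chromosome 19, had 2064, 1837 and 1767 counts, or 398, 348 and 333 CPM. Both DF508 libraries were below WT, 1.17-fold by the fit (log2 -0.23 ± 0.10 SE, unadjusted p = 0.0469, adjusted p = 0.408). Fads2 held 30.9% of the reads of this pair in WT (exact 95% interval 29.2% to 32.6%), 27.7% in DF508 replicate 1 (26.0% to 29.5%) and 27.8% in replicate 2 (26.1% to 29.6%). The WT interval overlaps both DF508 intervals. These intervals cover counting error only, and the division is uncertain because Fads2 shares reads.

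**Figure D4:**
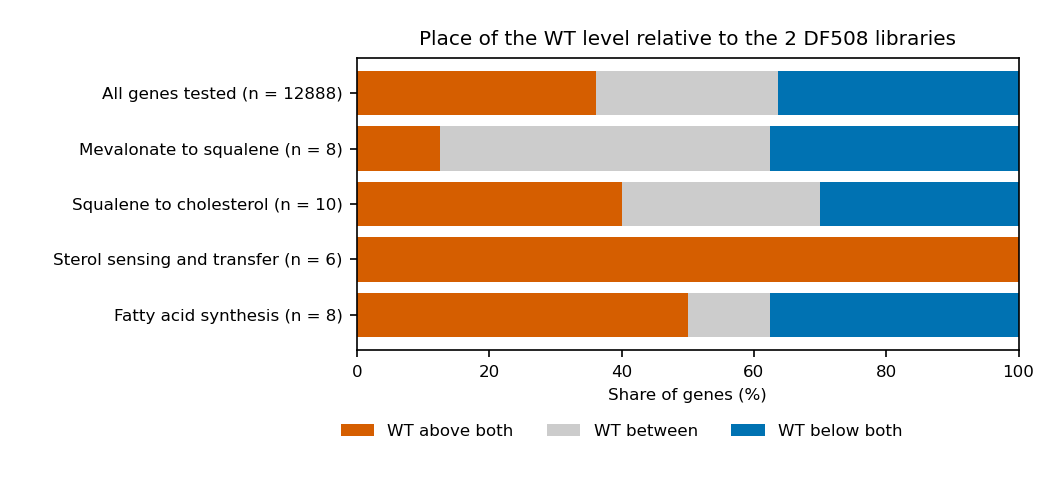
Share of genes (horizontal axis, percent) whose WT level lay above both, between or below both DF508 libraries in CPM, for all 12888 genes tested and for each of the 4 classes. All 6 sterol sensing and transfer genes had WT above both (5 when scaled to library totals), against 36.2% of all genes tested.

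The wider lipid pathways gave 0 calls as well. Of 18 tested genes linked to SREBPs or isoprenoids but outside the members, none passed the threshold, with a median log2 fold change of 0.02. Mbtps1, the protease that makes the opening cut in SREBPs, had 239, 226 and 219 CPM, and the malic enzyme Me1, a source of NADPH, had 109, 110 and 107 CPM. Of 26 other genes of fatty acid elongation, desaturation and activation none passed, with a median of 0.03. Among them the elongation reductase Tecr had 139, 132 and 136 CPM and the citrate carrier Slc25a1 98.6, 90.1 and 87.0 CPM. Of 23 fatty acid oxidation genes none passed, with a median of -0.04, and the trifunctional protein subunit Hadha had 151, 144 and 151 CPM. At an unadjusted p under 0.05 these 3 lists held 2 genes each, and of all genes tested 5.86% were higher and 6.08% lower.

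Cholesterol efflux, storage and uptake genes had a median of -0.16 over 23 tested, 16 of them negative, and none passed. At an unadjusted p under 0.05, 1 was higher and 3 lower, and of all genes tested 5.86% were higher and 6.08% lower. Lrp1, an endocytic receptor of the lipoprotein receptor family and the most abundant gene of the list, had 4483, 3655 and 3568 CPM (log2 fold change -0.31 ± 0.07 SE, adjusted p = 0.0982). Npc2, which hands cholesterol out of the lysosome, had 384, 299 and 300 CPM (log2 fold change -0.36 ± 0.10 SE, adjusted p = 0.155). Both had WT above the DF508 pair.

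Cell division genes changed in the same libraries. Of 31 cell division genes 12 rose and none fell, where 0.489% of all genes tested were called higher. The 31 genes summed to 1210 CPM in WT and 1860 and 2049 CPM in DF508. The list was chosen with earlier results of these data known, so this count is a description and not a test of the list. The spindle motor Kif11, which shares reads, went from 27.4 CPM to 62.7 and 62.5 CPM (adjusted p = 0.00902). The mitotic kinase Aurkb had 7.33, 17.8 and 20.4 CPM, and the kinesin Kif20b 13.9, 33.3 and 28.5 CPM (adjusted p = 0.044 and 0.0429). With library totals, without a filter on low counts, or on FPKM, 0 genes of any kind were called higher. Of the 15 myeloid markers none passed the adjusted threshold and all had a positive fold change. At an unadjusted p under 0.05, 11 of these markers were higher, and 5.86% of all genes tested. The median log2 difference of the markers from WT was 0.74 in DF508 replicate 1 and 2.74 in replicate 2. The part of either group in the levels of the synthesis genes was not tested.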

How the data were processed

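Poly(A) RNA was sequenced from 1 WT and 2 DF508 libraries. Bowtie, RSEM and the mm9 genome were used, per the submitters' processing notes; their versions: not given in the sources used here. Per the file headers, each deposited table holds expected counts (estimates of RSEM, not normalized), the authors' FPKM and the gene length in other columns. Genes missing from a table were set to 0 there. Of the expected counts 79.4% to 79.8% were whole within 0.005. A gene with an estimate that is not whole shares reads, but a whole estimate does not show that none were shared. No source used here says whether strand was counted, so reads of overlapping genes on opposite strands cannot be told apart.

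Counts were rounded and tested with edgeR's quasi-likelihood test (TMM, filterByExpr, all 3 libraries, genotype as the sole term), with 1 residual and 7.7 prior degrees of freedom and Benjamini-Hochberg adjustment over all genes. SE is the log2 fold change over the square root of F, and 95% intervals use the total degrees of freedom. The fit was also run on simulated counts with known folds, where the number of calls varied between simulations. No molecular identifiers are described, so count intervals cover counting error only. IDs were named with a RefSeq table of GRCm38.p6; 16579 of 16621 matched. Promoter windows come from the same build and no coordinate was converted from mm9. Alternatives were library totals, DESeq2 size factors, upper-quartile factors, other filters, DESeq2's Wald test, limma-voom, the likelihood ratio test, limma on log2(FPKM + 1) and log2(FPKM + 0.1), leaving out genes that share reads, and leaving out each DF508 library. All 32 members are named; of each other list, up to 3 genes past the threshold or, with none, up to 2 by level. The members and lists were chosen with earlier results of these data known. Versions were edgeR 4.0.16, DESeq2 1.42.0 and limma 3.58.1 under R 4.3.3.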

Additional observations from a re-analysis of the deposited data

How the results depend on the processing

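No sterol gene passed under any of the 12 settings with a test, and 1 fatty acid gene, Fads2, was called lower with the likelihood ratio test alone. Over all genes, the 63 higher and 116 lower calls became 182 and 221 with the likelihood ratio test, 23 and 42 with DESeq2's Wald test and 19 and 52 without genes that share reads. They became 0 and 0 with library totals, without a filter, and on FPKM. With library totals and without a filter the prior degrees of freedom were 2.57 and 1.78, against 7.7. Without a DF508 library no test is possible, since no residual degree of freedom remains. WT lay below both DF508 libraries in 10 sterol genes with library totals, and the summed sterol level of DF508 over WT was 0.985 in FPKM.

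Of the 32 genes, 23 kept the sign of their fold change under every setting run. The sign turned positive in 5 genes whose fitted log2 fold change was near 0. With library totals it was 0.0075 in Ebp, 0.017 in Fdft1, 0.041 in Hsd17b7, 0.039 in Sqle and 0.034 in Msmo1. With upper-quartile factors it was 0.018 in Hsd17b7, 0.015 in Sqle and 0.01 in Msmo1, and with a mean of at least 50 counts 0.0042 in Hsd17b7 and 0.0018 in Sqle. On log2(FPKM + 1), with or without a filter, the difference was 0.0064 in Ebp, 0.016 in Fdft1, 0.036 in Hsd17b7, 0.037 in Sqle and 0.033 in Msmo1, and on log2(FPKM + 0.1) 0.007, 0.016, 0.041, 0.038 and 0.034. Leaving out a DF508 library gave -0.004 to 0.15 in Mvk, -0.16 to 0.25 in Pmvk, -0.017 to 0.098 in Mvd, -0.083 to 0.023 in Fdft1 and -0.051 to 0.035 in Sqle. It gave -0.037 to 0.012 in Msmo1, -0.015 to 0.0054 in Hsd17b7 and -0.16 to 0.013 in Acly. The cause was not tested. No paired analysis was possible because the WT library carries no replicate number.

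Depth limits Tm7sf2, with 22 to 37 counts, and Pmvk, with 42 to 56 counts, most; without a filter the interval of Pmvk also reached past a fold of 2.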
